A study of Mus musculus with 8 samples.

Results

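The microRNAs (miRNAs) described here are 6 that mark muscle cells. mmu-miR-143 and mmu-miR-145 are abundant in smooth muscle and in the pericytes that wrap small vessels, and mmu-miR-1, mmu-miR-133a, mmu-miR-133b and mmu-miR-206 are abundant in striated muscle. They were chosen by name from the 611 mouse miRNAs on the array, and the prefix mmu- for mouse is left out from here on where it is clear. The kidneys came from ICR mice, an outbred strain, 7 days after the ureter of one side was tied off (unilateral ureteral obstruction, UUO). The comparison group was the unobstructed contralateral kidney of operated mice, so both groups shared the surgery, and neither was a sham or unoperated kidney. Genotype, age and sex were not given in the sources used here. Each group had 4 kidneys on 1 array each, and the labels do not say whether same-numbered kidneys came from 1 mouse or whether each kidney of a group is from its own mouse. A p-value here thus reflects sample-to-sample spread, which may be technical.

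miR-143 and miR-145 are processed from 1 transcript, which serum response factor and its partner myocardin switch on, and they help keep smooth muscle in its contractile state. miR-1 and miR-133a likewise share transcripts in heart and skeletal muscle, where miR-1 favours differentiation and miR-133a restrains serum response factor. miR-206 and miR-133b form a further pair, found mainly in skeletal muscle, a tissue that is no part of the kidney. In kidney the smooth muscle pair is known from artery walls and pericytes. A miRNA recognises its targets mainly through its seed, bases 2 to 8 from the 5′ end, and miR-206 and miR-1 are seed relatives, as are miR-133b and miR-133a.

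The skeletal muscle pair is shown because miR-206 stood out on 1 array, as described further on. The sequences are from RefSeq on build GRCm38.p6, which matched 2 of the 6 members. The array names carry no arm and were read as the 3p arm, which they conventionally denote. The seed is in capitals.
miR-206-3p: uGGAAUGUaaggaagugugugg
miR-133b-3p: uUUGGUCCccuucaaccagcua
Both mature miRNAs are 22 bases long and lie on the plus strand of chromosome 1, miR-206-3p at chr1:20679055-20679076 and miR-133b-3p at chr1:20682834-20682855. Their hairpins are 3686 bp apart. The 2 seeds differ, so the pair shares its position and not its target motif.

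All 8 arrays lay on 1 slide with 1 scan. The 75th percentile of probes above background was 417 to 582 intensity units on the contralateral arrays and 514 to 1595 on the obstructed arrays, and 228 to 240 against 243 to 310 miRNAs were above background. The array of obstructed kidney 2 stood apart, with a mean correlation across tested miRNAs of 0.964 with the contralateral group and 0.887 with its own group, so results are given with and without it. Of 8 kidney tubule markers, 7 were above background on every array, and miR-215 on none. In bulk tissue, fewer cells of a type and less RNA per cell cannot be told apart.

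Detection separated the members before any comparison of groups. Each miRNA had 2 probes with 10 spots each, and a miRNA was taken as above background where the scanner software marked over 50% of the spots of at least 1 of its probes. miR-143 carried the mark on all 80 spots of each group and miR-1 on 38 of 80 contralateral and 37 of 80 obstructed spots. Both were above background on all 8 arrays and were the 2 members among the 222 miRNAs tested. miR-145 was above background on 3 of 4 arrays in each group, miR-133b on 2 of 4 in each group, miR-133a on 0 and 1, and miR-206 on 0 and 1. The software's own per-miRNA mark was looser, with miR-145 detected on 8 arrays, miR-133a and miR-133b on 6 each and miR-206 on 1. No minor strand was detected, neither miR-145* nor miR-133a*, by either mark on any array.

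**Figure D1:**
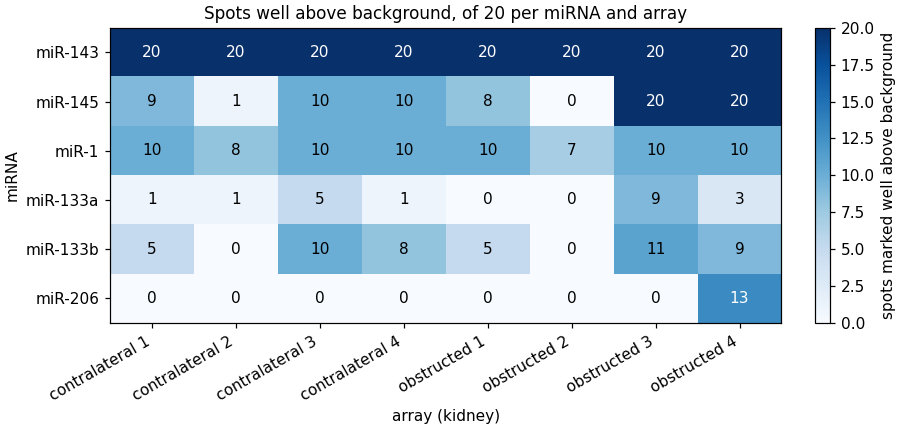
Number of spots, of 20 per miRNA and array, that the scanner software marked as well above background; columns are the 8 arrays and rows the 6 miRNAs. miR-143 has 20 on every array, miR-145 has 20 on obstructed arrays 3 and 4 alone, and miR-206 has 13 on obstructed array 4 and 0 on every other array.

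mmu-miR-143 did not pass the test, and its obstructed kidneys lay on both sides of the contralateral range. Its unscaled signal, summed over both probes, was 586, 533, 747 and 849 intensity units in contralateral kidneys 1 to 4 and 935, 471, 2278 and 3035 in obstructed kidneys 1 to 4. Obstructed kidneys 1, 3 and 4 were above all contralateral kidneys and kidney 2 was below them all. To compare arrays of unequal brightness, signals were expressed relative to the array's own 75th percentile, taken over 371 probes that were above background on every array. A change is then one against the bright miRNAs of that array. On that scale the log2 level was 0.19, 0.35, 0.44 and 0.54 in contralateral kidneys and 0.44, -0.13, 0.70 and 0.93 in obstructed kidneys. The groups overlapped, with 1 obstructed kidney inside the contralateral range.

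The log2 change of miR-143 was 0.10 ± 0.23 (SE, n = 4 each), with a 95% interval from -0.43 to 0.64 (limma adjusted p = 0.770). The interval leaves room for changes of either sign, so the result does not show equal levels. Of the 222 miRNAs tested, 14.9% were called, meaning an adjusted p under 0.05, with 1.35% up and 13.5% down after obstruction. That count of 33 moved by over 1.5 times whichever array was left out: to 113 without obstructed kidney 2, to 20 without contralateral kidney 2, to 14 without obstructed kidney 4 and to 0 (limma, 54 to 67 at an unadjusted p under 0.05) without any other single kidney. Without obstructed kidney 2 the change of miR-143 was 0.31 ± 0.15 (limma adjusted p = 0.133; n = 3 and 4), and 50.9% of miRNAs were called there. Without obstructed kidney 4 it turned to -0.043, and in slide row 1 alone it was -0.12 against 0.32 in slide row 2. The probes gave -0.011 and 0.17.

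**Figure D2:**
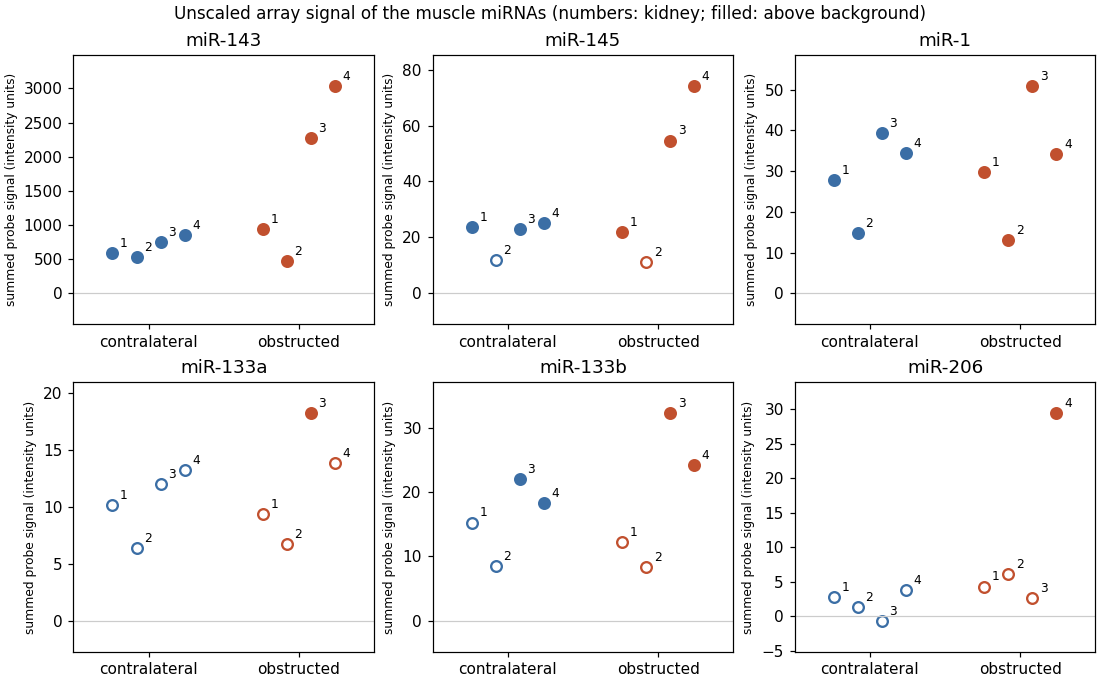
Unscaled signal summed over the 2 probes of each miRNA, in intensity units on linear axes that differ between panels; numbers give the kidney and filled points are above background. Obstructed kidneys 3 and 4 are highest for miR-143 and miR-145, the kidneys numbered 2 are lowest in both groups for 5 of 6 members, and obstructed kidney 4 stands alone for miR-206 at 29.4.

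mmu-miR-145, the cluster partner of miR-143, was too dim for the test on 2 arrays, contralateral kidney 2 and obstructed kidney 2. Its unscaled signal was 23.6, 11.7, 22.9 and 25.2 in contralateral kidneys 1 to 4 and 21.8, 11.1, 54.6 and 74.2 in obstructed kidneys 1 to 4. Obstructed kidneys 3 and 4 were above every contralateral kidney and obstructed kidneys 1 and 2 were not. Relative to the bright miRNAs the log2 level was -4.68 ± 0.32 in contralateral and -4.91 ± 0.48 in obstructed kidneys (SD, n = 4 each), a difference of -0.23. The groups overlapped, and the difference was 0.67 without scaling and -1.08 with normexp background correction. The normexp setting added a fixed offset of 50 to each spot, while the highest probe mean of miR-145 was 48.3. Its values for dim miRNAs therefore rest in large part on that offset. Where the software's own detection mark chose the miRNAs, miR-145 entered the fit with -0.23 ± 0.27 (SE, n = 4 each, limma adjusted p = 0.601), a filter chosen after the data were seen. Under it 15.3% of 249 miRNAs were called, 1.2% higher and 14.1% lower.

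The signals of the cluster partners, summed over probes, varied together on the obstructed arrays, but how closely depended on the processing. The log2 signal of miR-143 minus that of miR-145 was 5.42, 5.41, 5.38 and 5.35 in obstructed kidneys 1 to 4, a span of 0.068. Over the same arrays the unscaled signal of miR-145 spanned 6.69-fold and that of miR-143 spanned 6.44-fold. These spans include array brightness, as the 75th percentile ran from 514 to 1595 and unscaled miR-1 spanned 3.91-fold. After scaling, miR-143 lay between 0.917 and 1.90 and miR-145 between 0.0216 and 0.0465. In contralateral kidneys the log2 difference of the pair was 4.63, 5.51, 5.03 and 5.07, a span of 0.87. The tight span belongs to the processing used here, with an SD over obstructed kidneys of 0.030. That SD was 0.30 with the software's own summed signal and 0.27 with quantile normalization. It was 0.85 with normexp, where the offset of 50 enters the dim miR-145 far more than miR-143. With the mean of log2 probe values the order turned, with an SD of 0.35 in obstructed and 0.19 in contralateral kidneys. In obstructed kidney 2, 0 of 20 miR-145 spots were above background. Dividing an array by a constant does not change this difference, and it is no measure of relative abundance, since the 2 miRNAs have different probes. Contralateral kidney 2, at 5.51, was above all obstructed kidneys and the other contralateral kidneys were below them. The group means were 5.06 ± 0.36 and 5.39 ± 0.030 (SD, n = 4 each), 0.33 higher in obstructed kidneys (exact permutation p = 0.143, two-sided; the smallest possible is 0.0286). This comparison was made although miR-145 was above background on only 6 of 8 arrays. Without contralateral kidney 2, one of the arrays with miR-145 not above background, the difference was 0.48 (exact permutation p = 0.0286, the smallest that 3 against 4 allow). Without both kidneys numbered 2, the arrays with miR-145 not above background, it was also 0.48 (exact permutation p = 0.1, the smallest that 3 against 3 allow).

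**Figure D3:**
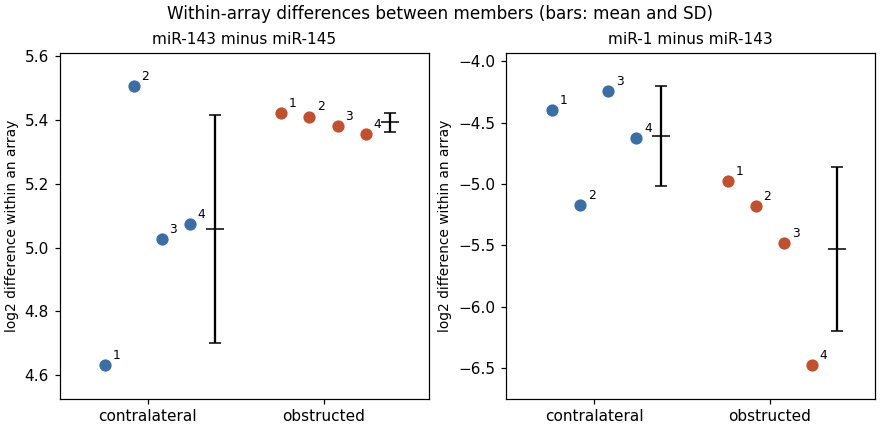
Within-array log2 differences between members, miR-143 minus miR-145 on the left and miR-1 minus miR-143 on the right; points are kidneys with their numbers, bars the group mean and SD. The 4 obstructed kidneys lie between 5.35 and 5.42 on the left, and on the right the obstructed kidneys lie at or below -4.97.

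mmu-miR-1, the striated muscle member above background on every array, had a lower scaled level in obstructed kidneys that did not pass the test. Its unscaled signal was 27.8, 14.8, 39.4 and 34.4 intensity units in contralateral kidneys 1 to 4 and 29.7, 13.0, 50.9 and 34.1 in obstructed kidneys 1 to 4. The unscaled group means, 29.1 ± 10.6 and 32.0 ± 15.6 (SD, n = 4 each), lay within 1 SD of each other. After scaling the log2 level was -4.21, -4.82, -3.81 and -4.08 in contralateral kidneys and -4.53, -5.30, -4.78 and -5.55 in obstructed kidneys. All 4 obstructed kidneys were below contralateral kidneys 1, 3 and 4, but kidneys 1 and 3 were above contralateral kidney 2, so the groups overlapped. Of all tested miRNAs, 23.0% had groups that did not overlap.

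The log2 change of miR-1 was -0.81 ± 0.29 (SE, n = 4 each), with a 95% interval from -1.49 to -0.14 (limma unadjusted p = 0.0241, adjusted p = 0.0906). It was -0.41 within slide row 1 and -1.22 within slide row 2, and -0.38 with the mean of log2 probe values. In that mean the dim probe, at the floor on every array, enters with a change of 0. At an unadjusted p under 0.05 there were 36.5% of the tested miRNAs. Without obstructed kidney 2 the change was -0.73 ± 0.32 (limma adjusted p = 0.0982; n = 3 and 4), and without both kidneys numbered 2, a setting added after the data were seen, it was -0.92 ± 0.29 (limma adjusted p = 0.0437; n = 3 each), where 48.6% of miRNAs were called (18.9% higher and 29.7% lower). limma's array weights gave -0.66 ± 0.22 (adjusted p = 0.0286; n = 4 each), with 62.2% called (24.3% higher and 37.8% lower). Without scaling the sign turned, at 0.068 ± 0.51 (limma adjusted p = 0.943; n = 4 each), as the median of all tested miRNAs moved from -0.14 to 0.74. Dropping the scaling shifts all values of an array above the floor alike, so the distance from that median stays the same by construction. It was -0.67 for miR-1 and 0.25 for miR-143 in both cases. With normexp and its offset of 50 it was -0.52 for miR-1 and 0.67 for miR-143. Only 1 of the 2 probes of miR-1 was above background, with a change of -0.76, and the other lay at the floor of the scale on every array.

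**Figure D4:**
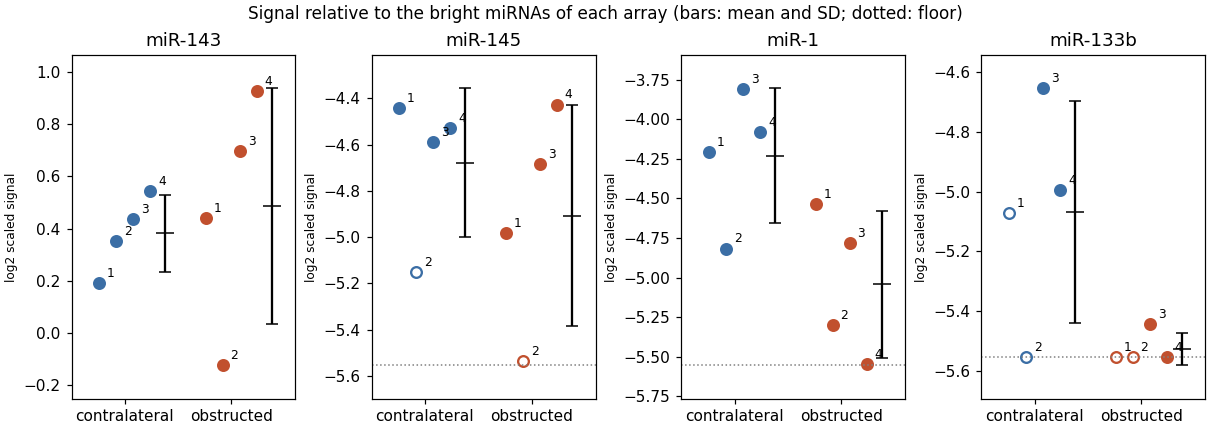
log2 signal relative to the 75th percentile of bright probes of each array for the 4 miRNAs above background on at least 4 arrays; points are kidneys with their numbers, filled where above background, bars give the mean and SD of 4 kidneys and the dotted line the floor. miR-1 in obstructed kidney 4 and miR-133b in 3 of 4 obstructed kidneys lie at or next to the floor.

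The change of miR-1 was also set against that of miR-143, and the difference did not pass its test. Within arrays, the log2 signal of miR-1 minus that of miR-143 was -4.40, -5.17, -4.25 and -4.62 in contralateral kidneys 1 to 4 and -4.97, -5.18, -5.48 and -6.48 in obstructed kidneys 1 to 4. The obstructed kidneys were lower except that kidney 1 lay above contralateral kidney 2. The difference between groups was -0.92 (exact permutation p = 0.0571, two-sided, n = 4 each). It was -0.60 without obstructed kidney 4, the lowest one (exact permutation p = 0.0857), and -0.29 within slide row 1 against -1.54 within slide row 2 (2 against 2 arrays each, too few to pass).

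mmu-miR-133b, the skeletal muscle partner of miR-206, was near the detection limit. Its unscaled signal was 15.3, 8.45, 21.9 and 18.3 in contralateral kidneys 1 to 4 and 12.2, 8.30, 32.2 and 24.2 in obstructed kidneys 1 to 4. It was above background in kidneys 3 and 4 of each group, which were the highest of each group, and the group ranges overlapped. After scaling, 1 contralateral and 3 obstructed kidneys lay at the floor, so the mean log2 difference of -0.46 is limited by the floor. It was -0.73 with a floor 4 times lower and 0.16 without scaling. In a fit of all 611 miRNAs with no filter it was -0.46 ± 0.18 (SE, n = 4 each, limma adjusted p = 0.316).

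mmu-miR-133a, which shares the miR-133 seed, was above background in obstructed kidney 3 alone. Its unscaled signal was 10.2, 6.41, 12.04 and 13.2 in contralateral kidneys 1 to 4 and 9.40, 6.75, 18.2 and 13.9 in obstructed kidneys 1 to 4. The ranges overlapped, and kidney 2 was lowest in both groups. With no floor, the values divided by the array's percentile were 0.0154 to 0.0227 in contralateral and 0.0087 to 0.0136 in obstructed kidneys, without overlap. Among the 222 tested miRNAs, with the floor, 23.0% had groups that did not overlap, 21.2% being lower in obstructed kidneys. Of the 8 miR-133a values, 6 lay below the floor of 0.0213, which sets them equal. Obstructed kidney 3 was among the 6, although miR-133a was above background there. No change is therefore given for miR-133a.

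mmu-miR-206 stood out in 1 kidney. Its unscaled signal was 2.71, 1.27, -0.65 and 3.83 in contralateral kidneys 1 to 4 and 4.30, 6.14, 2.58 and 29.4 in obstructed kidneys 1 to 4. Obstructed kidney 4 was high, and the other 7 kidneys lay between -0.65 and 6.14 with no spot above background. On that array 13 of 20 spots carried the mark, from both probes (5 of 10 and 8 of 10, of which the latter passed the rule), and the probe means were 13.3 ± 2.36 and 16.1 ± 3.29 (SD over 10 spots each). All 20 spots there, between 10.8 and 20.6, exceeded all 140 spots of the other 7 arrays, of which the highest was 8.97. The marked spots lay between rows 7 and 165 of 192 and columns 21 and 72 of 82, with some in each of the array's 4 quadrants. The scanner software detected miR-206 on that array alone.

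The partner miR-133b, at 24.2 without scaling in obstructed kidney 4, was above every contralateral kidney there and below obstructed kidney 3. After scaling both miR-206 and miR-133b lay at the floor on that array, so the high miR-206 signal is an unscaled one. The seed relative miR-1 was at 34.1 without scaling, within the contralateral range, and its scaled level there was the lowest of all 8 kidneys. Obstructed kidney 4 was also the brightest array, and 15 miRNAs, miR-206 among them, were above background on it and on no other array, against 5 for obstructed kidney 3 and 0 or 1 for each of the other 6. Obstructed kidney 3, with a 75th percentile of 1403 against 1595, had miR-206 at 2.58. The part that array brightness plays was not tested. With 1 kidney of 4, miR-206 gives no comparison between the groups.

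**Figure D5:**
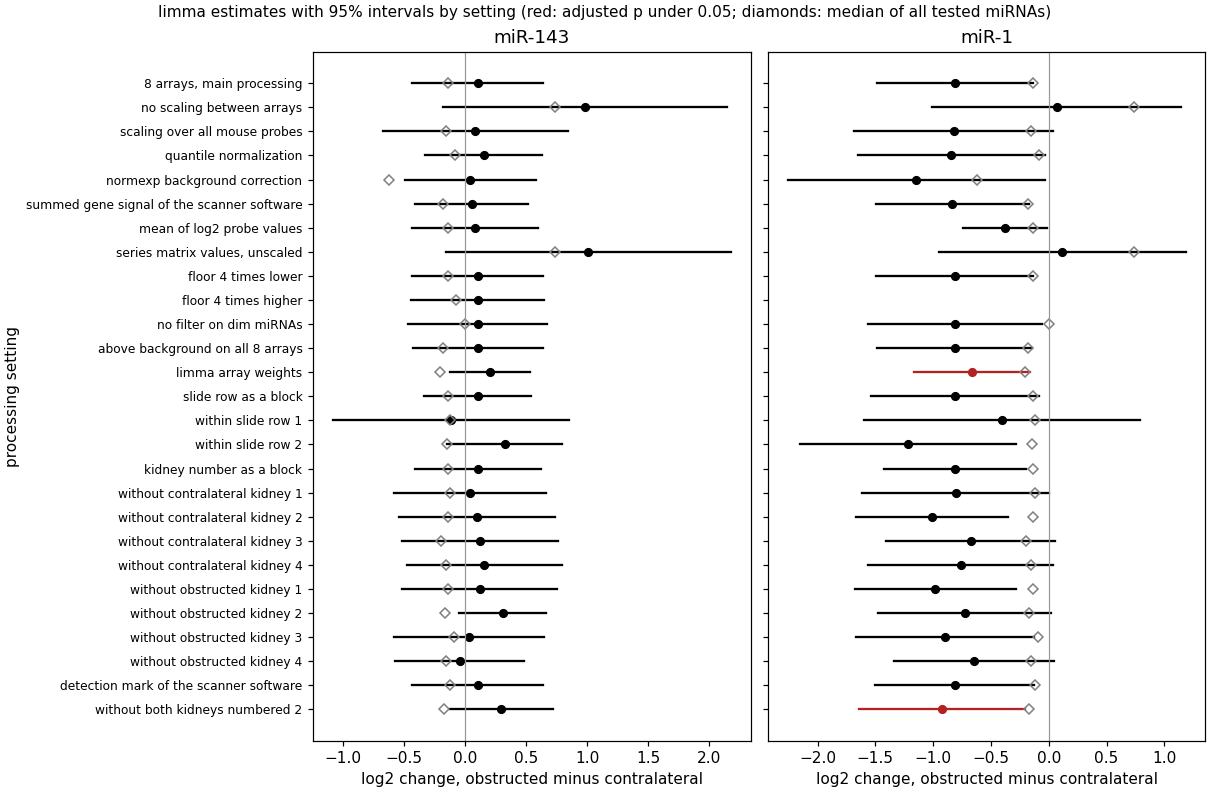
limma estimates of the log2 change of miR-143 and miR-1, obstructed minus contralateral, with 95% intervals, one line per processing setting; red marks an adjusted p under 0.05 and open diamonds the median change of all tested miRNAs. Both miRNAs move to the right by about the same amount as the median when arrays are not scaled, miR-1 to 0.068 and miR-143 to 0.99.

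Other striated muscle miRNAs gave little signal. Of miR-208a and miR-208b, which lie in myosin heavy chain introns, miR-499, of the same kind, and miR-486, which is also abundant in red blood cells, only miR-486 was above background, at -0.11 ± 0.75 on the log2 scale (limma adjusted p = 0.929, SE, n = 4 each). The other 3 were below background on all 8 arrays. Of 16 miRNAs known from vascular smooth muscle and mesenchymal cells, 2 of 16 tested fell and 0 rose (limma, 5 of 16 at an unadjusted p under 0.05 in either direction), beside 13.5%, 1.35% and 36.5% of all tested miRNAs, with a median change of -0.057 beside -0.14 for all tested miRNAs. miR-221, which represses the cell cycle inhibitor p27, fell by 0.44 (limma adjusted p = 0.0335, SE 0.11, n = 4 each), and miR-328 fell by 0.83 (limma adjusted p = 0.0286, SE 0.19). miR-21, widely studied in fibrosis, was at 0.81 ± 0.46 (limma adjusted p = 0.234). It was at 1.27 ± 0.25 without obstructed kidney 2 (SE, limma adjusted p = 0.0058, n = 3 and 4) and was called there. Without obstructed kidney 2, 6 of the 16 rose and 4 fell, beside 20.7% and 30.2% of all tested miRNAs, with a median of 0.063 beside -0.17. miR-10a, miR-10b and miR-204 of this list also mark kidney tubule.

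The miRNAs with the pattern most like miR-143 over the 8 arrays were miR-532-5p (Pearson r = 0.94), miR-497 (r = 0.93) and miR-139-5p (r = 0.91). Those most like miR-1 were let-7f (r = 0.98), let-7d (r = 0.97) and let-7a (r = 0.96), of the let-7 family that marks differentiated cells. The points share arrays and scaling, and the values describe likeness only. None of these 6 miRNAs was called, and those beside miR-1 had log2 changes of -0.36, -0.25 and -0.34 (limma adjusted p = 0.102, 0.211 and 0.102, n = 4 each). Without obstructed kidney 2 the 6 correlations were between 0.87 and 0.97.

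Markers of other cells differed in the same comparison. The sums below count a miRNA as 0 on an array where it was not above background, and otherwise at no less than the floor. The summed scaled signal of 8 tubule markers was 49.3 to 52.2 in contralateral and 26.0 to 38.7 in obstructed kidneys, with 4 of 7 tested members called lower, beside 13.5% of all tested miRNAs. That of 7 leukocyte markers was 1.95 to 2.65 and 1.84 to 7.69, with 0 of 5 tested members called (limma, 3 at an unadjusted p under 0.05, beside 36.5% of all tested), and 5 of 5 called higher without obstructed kidney 2, beside 20.7%. Of 2 endothelial markers 1 was called lower, at a sum of 12.1 to 15.2 and 9.57 to 13.2. None of 2 tested red blood cell markers and none of 1 tested marker of brain, liver and pancreas was called (limma, 0 at an unadjusted p under 0.05). The smooth muscle and pericyte pair summed to 1.187 to 1.501 and 0.917 to 1.949. The 7 striated muscle markers, miR-1, miR-133a, miR-133b and miR-206 among them, summed to 0.0355 to 0.111 and 0.0254 to 0.0805, with miR-208a, miR-208b and miR-499 above background on no array. The lowest striated muscle sum of each group was miR-1 alone, in the kidney numbered 2. The part of these marker shifts in the values of the muscle miRNAs was not tested.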

How the data were processed

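Total RNA, 100 ng per kidney, was labelled with Cy3 and hybridised to 1-colour Agilent mouse miRNA arrays, per the labels' protocols. Each deposited value was a spot's intensity, made with Agilent Feature Extraction (10.1.1 per the submitters' processing notes, 10.7.3.1 per the file headers), background-subtracted with no scaling between arrays, and marks of 0 or 1. The deposited series matrix held the same intensity values.

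Outlier spots (2.34% to 3.52%) were left out, spots of a probe averaged, each array divided by its 75th percentile over 371 probes above background on all arrays, probes of a miRNA summed, a floor of 0.0213 set and log2 taken. The 222 miRNAs above background on all arrays of a group were tested with limma 3.58.1 in R 4.3.3, two-sided, Benjamini-Hochberg adjusted. Contrasts within arrays used exact permutation tests. Fits were tested on simulated data with independent noise and no deviant array. That test does not cover an array that stands apart, as obstructed kidney 2 did. The number of arrays limits the precision. Members and lists were chosen with earlier results of these data known. Named beside the members were, for each tested member, the 3 miRNAs with the highest correlation, and per related list up to 3, called ones first, then by signal. Python 3.11.15 and matplotlib 3.10.9 drew the figures.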

Additional observations from a re-analysis of the deposited data

Results flagged for a closer look

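Within groups of 4 kidneys, 24 sets of member values were examined for a kidney far from the others, and 3 stood out, where chance alone marks about 5% of sets. Each member and group entered both unscaled and scaled, so the sets are not independent and that share is only a rough guide. miR-206 in obstructed kidney 4, at 29.4 intensity units without scaling, was far above the other obstructed kidneys. miR-145 in contralateral kidney 2, at 11.7 without scaling, was far below the other contralateral kidneys and was not above background there. miR-133a in obstructed kidney 4, at 0.0087 after scaling, lay apart from the other obstructed kidneys by this measure. All 4 obstructed values were below the floor, though, which sets them equal.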

How the results depend on the processing

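miR-143 and miR-1 were recomputed under 26 and 25 alternative settings. miR-143 kept its sign and stayed uncalled in 24, and turned to -0.12 within slide row 1. When each kidney was left out in turn miR-143 lay between -0.043 and 0.31, and was negative only without obstructed kidney 4. miR-1 kept its sign and stayed uncalled in 21, turned to 0.068 without scaling and 0.12 with the unscaled series matrix, and was called with limma's array weights at -0.66 and without both kidneys numbered 2 at -0.92. With a floor 4 times higher all 8 arrays lay at the floor for miR-1, miR-145 and miR-133b, so no value was had. The difference of miR-145 moved to 0.67 without scaling, -1.08 with normexp and 0.65 with the series matrix. That of miR-133b moved to 0.16, -1.11 and 0.17 in the same settings, -0.76 with the software's summed signal, -0.13 with the mean of log2 probe values and -0.73 with a floor 4 times lower. The difference of miR-143 and miR-145 lay between 0.19 and 0.48 when each kidney was left out, and passed only without contralateral kidney 2. miR-133a and miR-206, below background on most arrays, were fitted only with no filter, with all obstructed kidneys at the floor, and no change is read from those fits.

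The number of called miRNAs, 33 with 8 arrays, was 3 without scaling, 3 with quantile normalization, 3 with the series matrix, 17 with no filter, 138 with array weights, 69 within slide row 2 and 108 without both kidneys numbered 2. It was 0 with scaling over all mouse probes, with normexp and within slide row 1 (limma, 56, 54 and 1 at an unadjusted p under 0.05), and between 0 and 113 when each kidney was left out in turn. Dropping the scaling moved the median of all tested miRNAs by 0.88. The normexp setting, which kept the scaling and added an offset of 50 to each spot, moved that median by -0.48. The cause was not tested. With the replicate number as a block 0 miRNAs were called (limma, 67 at an unadjusted p under 0.05), miR-143 was at 0.10 ± 0.20 and miR-1 at -0.81 ± 0.24 (adjusted p = 0.0999; n = 4 each). In paired form the exact sign-flip test gave p = 0.125 for miR-1 minus miR-143 and p = 0.25 for miR-143 minus miR-145, where 4 pairs allow no less than 0.125. Deviations of same-numbered kidneys correlated at -0.35, 0.22, 0.62 and 0.015, and 2 of 4 contralateral kidneys correlated best with their own number. Such correlations cannot show whether same-numbered kidneys came from 1 mouse. The labels do not say either, and the numbers were not taken as pairs in the main fit. Signal near background limits miR-145, miR-133a, miR-133b and miR-206.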

Other observations

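Beside miR-206, 14 of the 15 miRNAs above background on the array of obstructed kidney 4 and on no other were miR-21*, miR-34c*, miR-295*, miR-300, miR-300*, miR-341, miR-345-3p, miR-351, miR-468, miR-546, miR-666-5p, miR-669b, miR-1186 and miR-1901, listed after their values were seen. miR-21*, the minor strand of miR-21, had a summed signal of 49.2 intensity units there, and miR-34c*, the minor strand of the p53-responsive miR-34c, had 19.7. No other muscle miRNA was among the 15.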
